A study of Mus musculus with 12 samples.

Results

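Cytosolic ribosomal protein genes were followed in 12 whole mouse embryos as the rows of the gene table named Rpl or Rps with a number, Rplp0, Rplp1, Rplp2 or Rpsa. Names with -ps or ending in rt, which mark pseudogenes or retrotransposed copies, were left out, as were S6 kinase and Rps19 binding protein genes. The choice used names alone and gave 88 of 41079 genes, of which 54 belong to the large and 34 to the small subunit. Of these, 77 encode core proteins and 11 are paralogs by name, copies of a core gene with a gene name of their own. Rps4l and Rpl6l, among these paralogs, are annotated as pseudogenes.

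Ribosomal proteins assemble with ribosomal RNA in the nucleolus into a large subunit, which forms peptide bonds, and a small subunit, which decodes the mRNA. Their mRNAs are among the most abundant of dividing cells and carry a pyrimidine tract at the 5′ end through which growth signalling controls their translation. In mice and humans, loss of a single copy of some of these genes disturbs red blood cell formation or patterning of the embryo.

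RNA came from whole embryos collected 10.0 to 11.0 days after fertilization from matings between Mfsd12 heterozygotes. Mfsd12 encodes a lysosomal and melanosomal membrane protein needed for cysteine import, and the series title concerns reduced thiols in lysosomes. There were 4 Mfsd12 knockout, 4 heterozygous and 4 wild-type embryos, each a separate animal, and the labels name no other allele or treatment. They do not give the kind of Mfsd12 allele, the strain or a stage for each embryo.

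Between 53133084 and 67977990 reads were counted per embryo. Mfsd12 had 2.31 to 3.56 CPM (a gene's reads relative to the library total, scaled by edgeR's TMM factors) in knockout, 2.57 to 8.84 CPM in heterozygous and 9.37 to 16.2 CPM in wild-type embryos. The 2.57 CPM belonged to the library labelled heterozygous 2, which goes against its label. Titles carry a first number without stated meaning (4, 4.1b, 14, 15 or 18), and only 4 and 18 occur with every genotype. All listed markers of red blood cells, neurons, yolk sac and liver endoderm, macrophages and cardiac muscle were detected over the 12 embryos. In such bulk samples, fewer cells of a type and less RNA per cell cannot be told apart.

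As a group, ribosomal protein genes took a similar mean share of the reads in every genotype, but differed widely between embryos of the same genotype. The share was 3.08%, 3.38%, 3.04% and 3.33% in knockout embryos 1 to 4. It was 3.30%, 4.55%, 2.50% and 3.03% in heterozygous embryos 1 to 4, and 4.64%, 3.26%, 2.36% and 2.69% in wild-type embryos 1 to 4. Knockout embryos therefore lay inside the range of the other genotypes. The means were 3.21% ± 0.174 in knockout, 3.35% ± 0.870 in heterozygous and 3.24% ± 1.005 in wild-type embryos (SD, n = 4 each). Without the library labelled heterozygous 2, the heterozygous mean was 2.94%, and without wild-type 1 the wild-type mean was 2.77%.

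**Figure D1:**
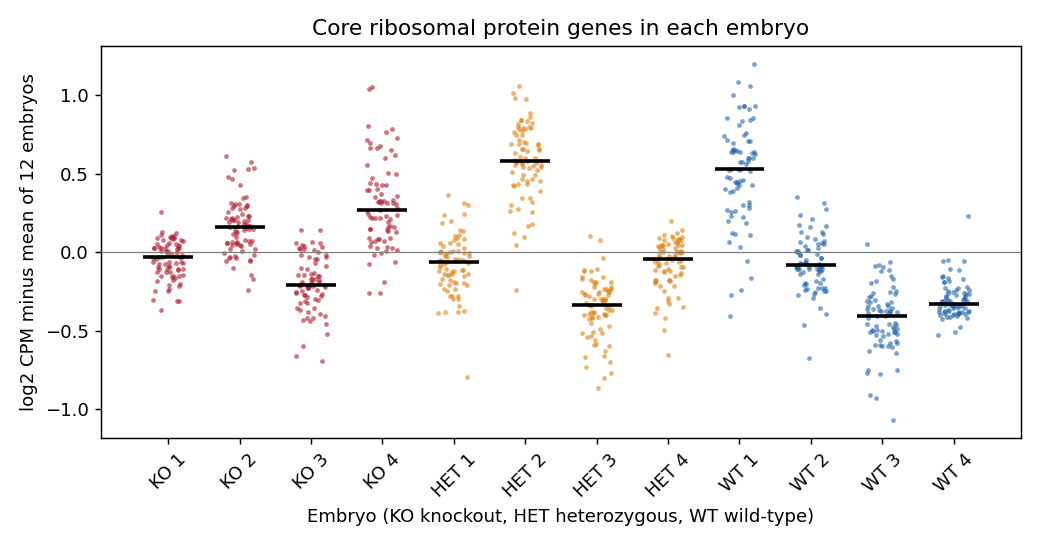
Each point is 1 of 77 core ribosomal protein genes, as log2 CPM minus the gene's mean over 12 embryos (vertical axis), for each embryo (horizontal axis), and black bars are medians. The medians of heterozygous 2 (0.58) and wild-type 1 (0.53) lie highest and that of wild-type 3 (-0.41) lowest.

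The core genes mostly moved up and down together from embryo to embryo. Relative to each gene's own mean, the median core gene stood at log2 values of -0.03, 0.16, -0.21 and 0.27 in knockout embryos 1 to 4. The corresponding medians were -0.06, 0.58, -0.34 and -0.04 in heterozygous embryos 1 to 4 and 0.53, -0.08, -0.41 and -0.33 in wild-type embryos 1 to 4. The library labelled heterozygous 2 had the highest level of 37 core genes, wild-type 1 of 28 and knockout 4 of 12. Those 12 genes were mostly low in reads, with a median level of 24.0 CPM, against 231 CPM for the other 65 core genes. Rplp1, also among the 12, had a mean of 825 CPM. Wild-type 3 was lowest for 39. The highest embryo exceeded the lowest by 1.62-fold for Rpl21 to 4.32-fold for Rps14, with a median of 2.36-fold.

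The extreme libraries also stood apart in other measures, whose part in the ribosomal protein levels was not tested. Wild-type 1 had 8.64% of its reads in globin genes, against 0.519% to 5.03% in the other embryos, and the lowest level of mitochondrial DNA genes (10003 CPM, others 16717 to 28297 CPM). Knockout 4 had 5.25% of its reads in Gm26917, against 0.581% to 2.22% elsewhere. It also had the lowest stage index (-3.16), a score of genes higher later minus genes lower later in development. Cardiac muscle markers summed to 1367 CPM in the library labelled heterozygous 2 (others 389 to 1044 CPM), and yolk sac and liver endoderm markers to 4166 CPM in knockout 3 (others 9.36 to 694 CPM). The 11 red blood cell markers summed to 5169.7 to 18843 CPM in knockout, 12909 to 51706 CPM in heterozygous and 17873 to 95819 CPM in wild-type embryos.

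**Figure D2:**
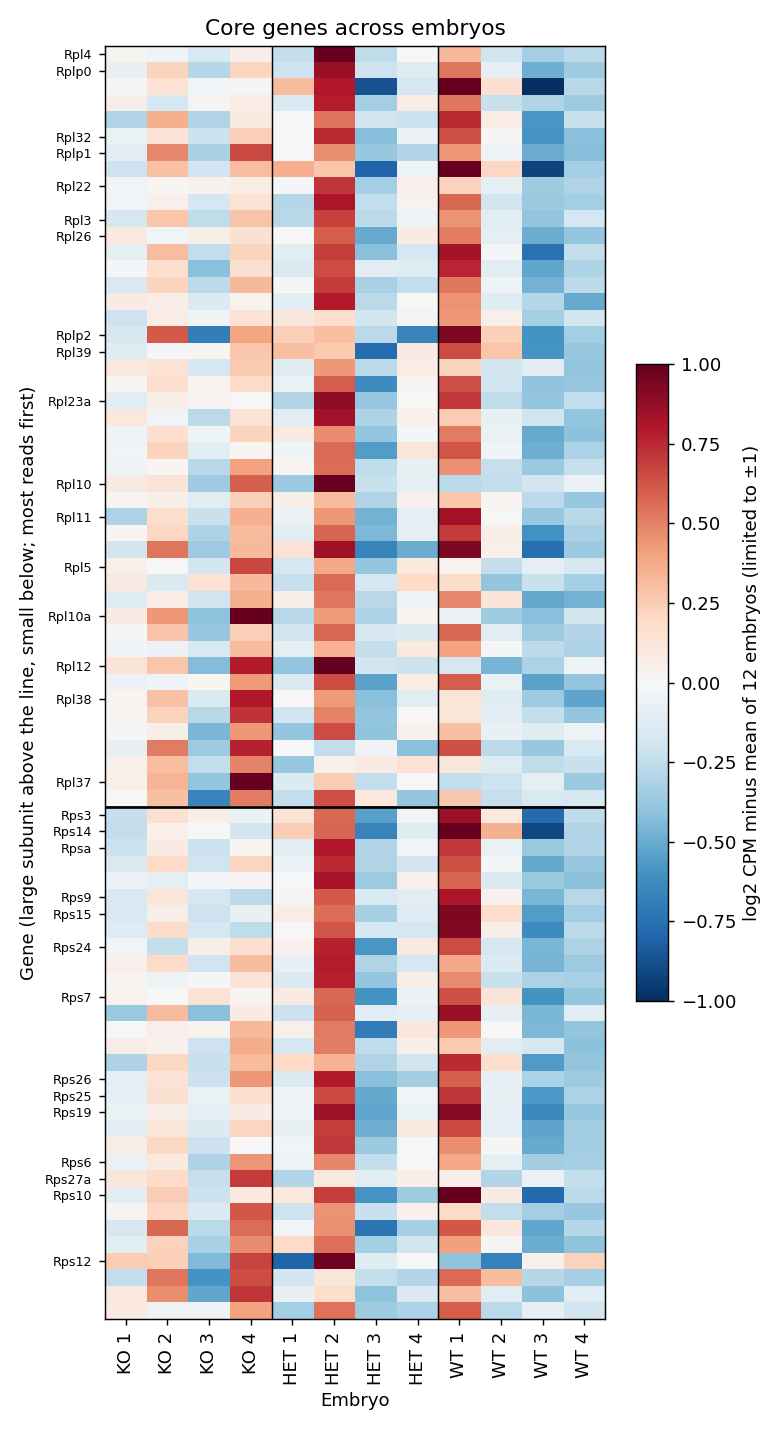
Colours show log2 CPM minus the mean of 12 embryos for 77 core genes (rows) in each embryo (columns), with the scale limited to ±1. Heterozygous 2 and wild-type 1 are red for most genes of both subunits, and knockout 4 is the highest for 12 genes such as Rpl37 and Rpl10a.

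The first question was whether embryos without Mfsd12 expressed these genes differently from wild-type embryos. By edgeR's quasi-likelihood test with Benjamini-Hochberg adjustment over 20771 genes, 0 of the 86 members tested passed the threshold of 0.05, and the share called over all genes was 0%. The smallest adjusted p of a member was 0.587. At an unadjusted p under 0.05, 2 members were higher and 0 lower, Rpl10a and Rpl37, while 8.33% of all genes fell below that limit in either direction, 4.25% as higher and 4.08% as lower. DESeq2 called 0 members and 0.644% of the genes it tested, and limma voom called 0 members and 0% of genes. No member had knockout and wild-type values that did not overlap, against 3.43% of all genes. The 2 members not tested, Rpl10l and Rpl3l, had too few reads.

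The fold changes themselves were small. The median log2 fold change in knockout over wild-type embryos was 0.07 over the 86 members and 0.01 over all genes tested, and 61 members had a value above 0 (70.9%, against 51.3% of all genes). Large subunit core genes had a median of 0.08, with 36 of 46 above 0, and small subunit core genes 0.03, with 19 of 31. The 95% interval lay within a 2-fold change in either direction for 77 members. Without wild-type 1, all 77 core genes had a fold change above 0, with a median of 0.31, and without knockout 4 only 36 did, with a median of -0.01. With the title number as a block 23 core genes lay above 0, and with the stage index as a covariate 13. Knockout 4 is the only embryo of number 15 and heterozygous 3 the only one of 4.1b. The block therefore leaves both without a part in the fold changes, so it also acts as a fit without knockout 4.

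**Figure D3:**
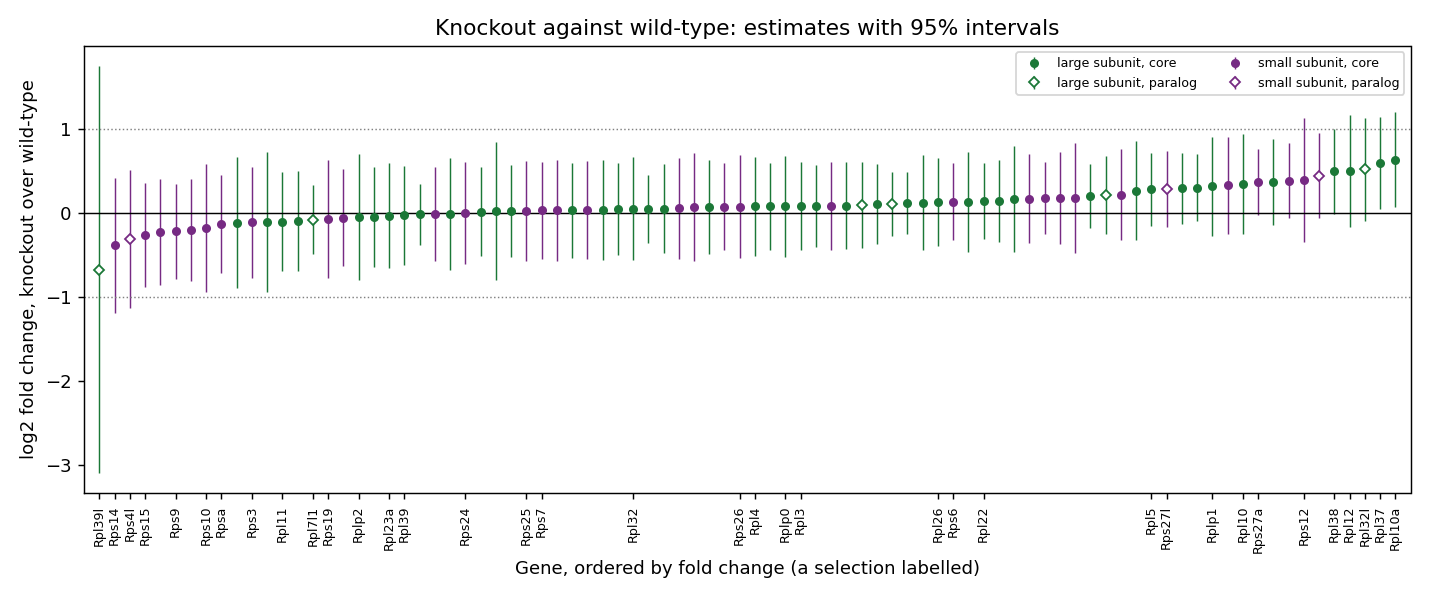
Points are log2 fold changes in knockout over wild-type embryos (vertical axis) for all 86 members tested, ordered by value (horizontal axis), with 95% intervals. Intervals of Rpl10a and Rpl37 alone exclude 0, before adjustment, and that of the scarce Rpl39l is the widest.

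Rpl10a, a large subunit protein at the stalk that contacts leaving transfer RNA, had the highest estimate. Its GRCm39 position is chromosome 17, 28547557 to 28550007, plus strand. Rpl10a had 38.7, 49.2, 27.6 and 75.2 CPM in knockout embryos 1 to 4, 30.1, 49, 29.4 and 37.1 CPM in heterozygous embryos 1 to 4 and 35, 28.5, 27.3 and 32.2 CPM in wild-type embryos 1 to 4. Knockout 4 was highest of all, and knockout 3 lay inside the wild-type range. The log2 fold change in knockout over wild-type embryos was 0.63 ± 0.26 (SE; edgeR adjusted p = 0.587). It was 0.33 without knockout 4 and 0.20 with the title number block, in which knockout 4 likewise has no part. With the stage index it was -0.09.

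Rpl37, a small zinc-binding protein of the large subunit, is on chromosome 15 (5146127 to 5148626, plus strand). It had 16.1, 19.8, 11.9 and 32.4 CPM in knockout embryos 1 to 4, 14.2, 18.6, 13.1 and 15.6 CPM in heterozygous embryos 1 to 4 and 13.2, 13.5, 14.6 and 12 CPM in wild-type embryos 1 to 4. Again knockout 4 stood above every other embryo and knockout 3 was the lowest. Its log2 fold change was 0.59 ± 0.25 (SE; edgeR adjusted p = 0.597). It was 0.26 without knockout 4 and 0.18 with the title number block, in which knockout 4 likewise has no part. With the stage index it was -0.05, and it was 0.20 once reads of its sequence-matched copy were added.

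Rpl38, which in mice is needed for normal patterning of the axial skeleton, had 25, 30.0, 22.2 and 42.7 CPM in knockout embryos 1 to 4, 24.4, 32.9, 18.3 and 22.7 CPM in heterozygous embryos 1 to 4 and 26.6, 22.5, 19 and 17 CPM in wild-type embryos 1 to 4. Groups overlapped and the estimate was 0.49 ± 0.24 (SE; edgeR adjusted p = 0.606). Rpl12, a protein at the base of the stalk, had an estimate of 0.50 ± 0.31 (SE), with 40.8 ± 14 CPM in knockout embryos and 28.9 ± 3.55 CPM in wild-type embryos (SD, n = 4 each). Toward the other end were Rps14, Rps15 and Rps9, small subunit proteins with estimates of -0.39 ± 0.37, -0.27 ± 0.29 and -0.22 ± 0.26 (SE). Rps14 had 1273, 1559.8, 1512 and 1324 CPM in knockout embryos 1 to 4, 1784, 2259, 949.6 and 1386 CPM in heterozygous embryos 1 to 4 and 3469, 1929, 802 and 1222 CPM in wild-type embryos 1 to 4. The wild-type spread was set by wild-type 1 at the top and wild-type 3 at the bottom, with all knockout embryos between them.

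Against heterozygous embryos, knockout embryos likewise showed no member past the threshold, with 0% of all genes called by edgeR, 0.367% by DESeq2 and 0% by limma voom. At an unadjusted p under 0.05 there were 0 members, against 7.4% of all genes, and 0 members did not overlap, against 3.44%. The median log2 fold change was -0.01 over the members and 0.00 over all genes, with 39 of 86 members above 0, against 49.9% of all genes. Of the 77 core genes, 33 lay above 0, with a median of -0.02, and this count moved with the embryos and the covariate. Without the library labelled heterozygous 2 it was 76, with a median of 0.20, and without knockout 4 it was 16, with a median of -0.09. With the title number block it was 10, with a median of -0.18, and with the stage index 4, with a median of -0.19.

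Between heterozygous and wild-type embryos, again 0 members were called, with 0% of all genes by edgeR, 0.0194% by DESeq2 and 0% by limma voom. None had an unadjusted p under 0.05, against 1.01% of all genes, and none had groups that did not overlap, against 0.876%. The members' median log2 fold change was 0.10 and that of all genes -0.01, with 62 of 86 members above 0, against 48.4% of all genes. Without the library labelled heterozygous 2 only 9 of 77 core genes lay above 0, with a median of -0.13, and without wild-type 1 the count was 76, with a median of 0.34.

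Knockout and wild-type embryos were also set side by side within a title number. Among embryos of number 4, the 1 knockout exceeded the mean of the 2 wild-type embryos for 77 of 77 core genes, with a median log2 difference of 0.55. Among embryos of number 18, the 1 knockout lay below the mean of the 2 wild-type embryos for 75 of 77, with a median of -0.41. The difference between both numbers was tested with genotype and title number as an interaction over their 8 embryos, a fit with 2 residual degrees of freedom. By edgeR, 0 of 86 members passed the adjusted threshold, against 0.251% of all genes, and the smallest adjusted p of a member was 0.0756, for Rplp2. At an unadjusted p under 0.05 there were 47 members, against 17% of all genes, and the median log2 difference (number 4 minus number 18) was 0.93 over the members and -0.075 over all genes. Knockout 3, with the high yolk sac and liver endoderm markers given above, is the 1 knockout of number 18. The 2 wild-type embryos of number 18 are wild-type 1, among the extreme libraries above, and wild-type 2. Their core medians relative to each gene's mean were 0.53 and -0.08, against -0.21 in knockout 3 and -0.06 in heterozygous 1. The differences at number 18 therefore rest largely on wild-type 1. Heterozygous against wild-type embryos had medians of 0.32 for number 4 and -0.27 for number 18. Knockout against heterozygous embryos, 1 of each, had medians of 0.19 for number 4, -0.13 for number 18 and -0.67 for number 14. The heterozygous embryo of number 14 is the library labelled heterozygous 2, whose Mfsd12 level goes against its label.

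In shares of reads, the balance between the subunits set title number 18 apart from the others. The share of reads in large subunit core genes divided by that in small subunit core genes was 0.862 to 0.927 in the 4 embryos of number 18 and 0.970 to 1.08 in the 8 others. These ranges did not overlap. By genotype the ratio was 1.01 ± 0.0644 in knockout, 0.985 ± 0.0476 in heterozygous and 0.940 ± 0.0624 in wild-type embryos (SD, n = 4 each), and these ranges did. Wild-type embryos 1 and 2 carry number 18, against knockout 3 alone among knockout embryos. Genes with many reads weigh most in these shares. Relative to each gene's mean, median large and small subunit core genes stood at log2 -0.22 and -0.20 in knockout 3. These medians were -0.11 and -0.05 in heterozygous 1, 0.50 and 0.62 in wild-type 1 and -0.09 and -0.07 in wild-type 2. In heterozygous 2, of number 14, they were 0.580 and 0.588. The difference between title numbers was not tested.

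**Figure D4:**
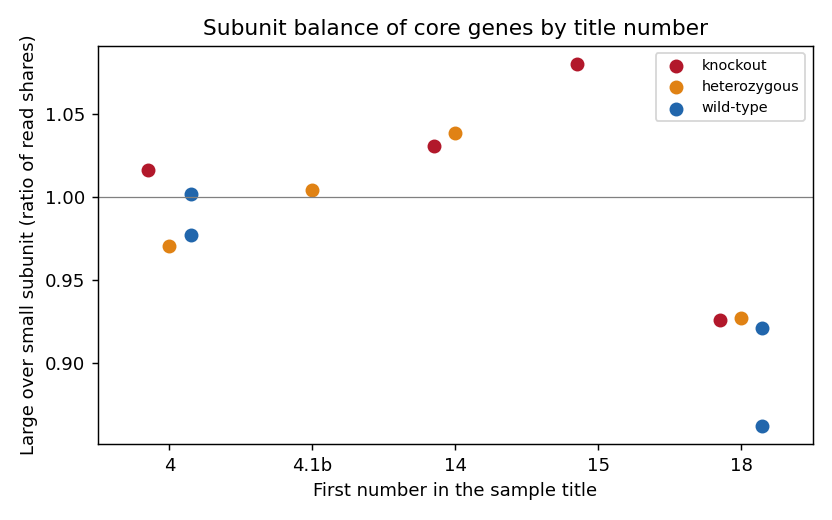
Points are embryos coloured by genotype, with the ratio of large to small subunit core read shares (vertical axis, not starting at 0) by the first number in the title (horizontal axis). All 4 embryos of number 18 lie at 0.927 or below, whatever their genotype.

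Members with defined tasks in the ribosome are given next, starting with the stalk, which recruits the translation factors. Rplp0, its base, is on chromosome 5 (115697526 to 115701788, plus strand) and had 2180.2, 2669, 1878 and 2654 CPM in knockout embryos 1 to 4, 1988, 4162, 1990.0 and 2101 CPM in heterozygous embryos 1 to 4 and 3307, 2162, 1636 and 1792 CPM in wild-type embryos 1 to 4. Heterozygous 2 and wild-type 1 were the highest. The log2 fold change in knockout over wild-type embryos was 0.08 ± 0.28 (SE) for Rplp0, 0.31 ± 0.27 for Rplp1 and -0.05 ± 0.35 for Rplp2, its acidic partners.

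Around the catalytic centre and the exit tunnel, estimates were also within their errors of 0 or little beyond. Rpl3, next to the peptidyl transferase centre, had a log2 fold change of 0.08 ± 0.24 (SE) in knockout over wild-type embryos, and Rpl10, added late in large subunit maturation, 0.34 ± 0.28. Rpl4 and Rpl39, which line the tunnel, had 0.08 ± 0.27 and -0.03 ± 0.27, and Rpl23a at its exit -0.03 ± 0.29. Rpl4 had 2504, 2397, 2215 and 2574 CPM in knockout embryos 1 to 4, 2084, 5114, 2059.5 and 2469 CPM in heterozygous embryos 1 to 4 and 3073, 2142, 1938 and 2039 CPM in wild-type embryos 1 to 4. The library labelled heterozygous 2 exceeded every other embryo there.

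Rpl5 and Rpl11 form a particle with 5S ribosomal RNA that binds Mdm2, the negative regulator of p53, when ribosome assembly fails. Rpl5 had 52.5 ± 14.7 CPM in knockout embryos and 43.2 ± 3.48 CPM in wild-type embryos (SD, n = 4 each), and Rpl11 55.8 ± 12.3 CPM in knockout embryos and 60.1 ± 26 CPM in wild-type embryos. Their log2 fold changes were 0.28 ± 0.20 and -0.11 ± 0.27 (SE), on opposite sides of 0. Rpl26, which binds p53 mRNA in human cells, had 0.13 ± 0.24, and Rpl22, an RNA-binding protein important for T cell development in mice, 0.14 ± 0.21.

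Several small subunit genes are mutated in Diamond-Blackfan anaemia, a human disorder of red blood cell precursors. Rps19, the gene most often affected, is on chromosome 7 (24584013 to 24589236, plus strand) and had 209, 229, 206 and 232 CPM in knockout embryos 1 to 4, 212, 393, 153 and 209 CPM in heterozygous embryos 1 to 4 and 412, 205, 139.9 and 168 CPM in wild-type embryos 1 to 4. Knockout embryos spanned a narrower range than the others. Its log2 fold change was -0.08 ± 0.33 (SE) in knockout over wild-type embryos. Other genes of that disorder had -0.002 ± 0.28 for Rps24, 0.03 ± 0.27 for Rps7, 0.07 ± 0.29 for Rps26 and -0.18 ± 0.35 for Rps10. None of these estimates exceeded its standard error.

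Rps6, the substrate of S6 kinase, had a log2 fold change of 0.13 ± 0.21 (SE) and Rps3, at the mRNA entry, -0.12 ± 0.31. Rpsa, also known as the laminin receptor, had -0.14 ± 0.27 and Rps25, used by some viral internal ribosome entry sites, 0.02 ± 0.28. Rps27a, made as a fusion with ubiquitin, had 0.36 ± 0.18, with 73.8, 77.7, 58.0 and 110.0 CPM in knockout embryos 1 to 4 against 70.9, 55.4, 64.9 and 57.5 CPM in wild-type embryos 1 to 4. Knockout embryos 1, 2 and 4 exceeded the wild-type range for this gene, and so did heterozygous embryos 2 and 4. Heterozygous embryos 1 to 4 had 55.3, 72.5, 62.6 and 71.2 CPM.

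Per kilobase of exon, the most abundant large subunit genes over the 12 embryos were Rpl32, Rplp1, Rplp0 and Rpl4, at 2035, 1763, 1748 and 1637 CPM per kilobase. Among the most abundant small subunit genes were Rps14, Rps15 and Rps9, at 2718, 1841 and 1267 CPM per kilobase. Core genes covered 6.98 to 2718 CPM per kilobase, with a median of 171.

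Of the 11 paralogs, 9 were tested and 0 were called, with a median log2 fold change of 0.11 in knockout over wild-type embryos. Rpl39l, Rpl10l and Rpl3l, copies known for expression in testis or striated muscle, stayed at or below 0.516, 0.0305 and 0.181 CPM in every embryo. Rpl22l1, the paralog of Rpl22, had 0.21 ± 0.21 (SE). Rps27l, a p53 target in human cells, had 143, 180.0, 147 and 193 CPM in knockout embryos 1 to 4, 156, 154, 104 and 153 CPM in heterozygous embryos 1 to 4 and 193, 132, 95.3 and 126 CPM in wild-type embryos 1 to 4. Its log2 fold change was 0.28 ± 0.21.

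Rpl7l1 ran against the core genes in the library labelled heterozygous 2. It had 189, 243, 197 and 214 CPM in knockout embryos 1 to 4, 210.1, 140.5, 208 and 207 CPM in heterozygous embryos 1 to 4 and 308, 214, 177 and 193 CPM in wild-type embryos 1 to 4. That library was the lowest of all 12, while it was the highest for 37 core genes. The log2 fold change in knockout over wild-type embryos was -0.08 ± 0.19 (SE). Of the remaining paralogs, Rpl32l had 0.52 ± 0.28, Rps23rg1 0.44 ± 0.24 and Rpl36al 0.11 ± 0.18. Rpl6l and Rps4l, both annotated as pseudogenes, had 0.09 ± 0.24 and -0.31 ± 0.38.

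Many ribosomal protein genes have near-identical copies elsewhere in the genome. The authors' counting split reads with several reported places as fractions. By sequence, 81 other rows matched 34 members with at least 95% identity over at least 60% of their length. For 13 members the copies held more reads than the gene's own row. The copies' share was 99.2% for Rps27, 97.0% for Rpl37, 96.2% for Rpl17 and 94.4% for Rps6. These shares were far from even, and the cause was not tested. Over all members the copies held 21.8% to 23.9% of the combined reads per embryo. For single genes the range over embryos could be wider, with 32.6% to 47.2% for Rps25 and 29.0% to 47.1% for Rpl7a, against 95.4% to 98.2% for Rpl37.

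**Figure D5:**
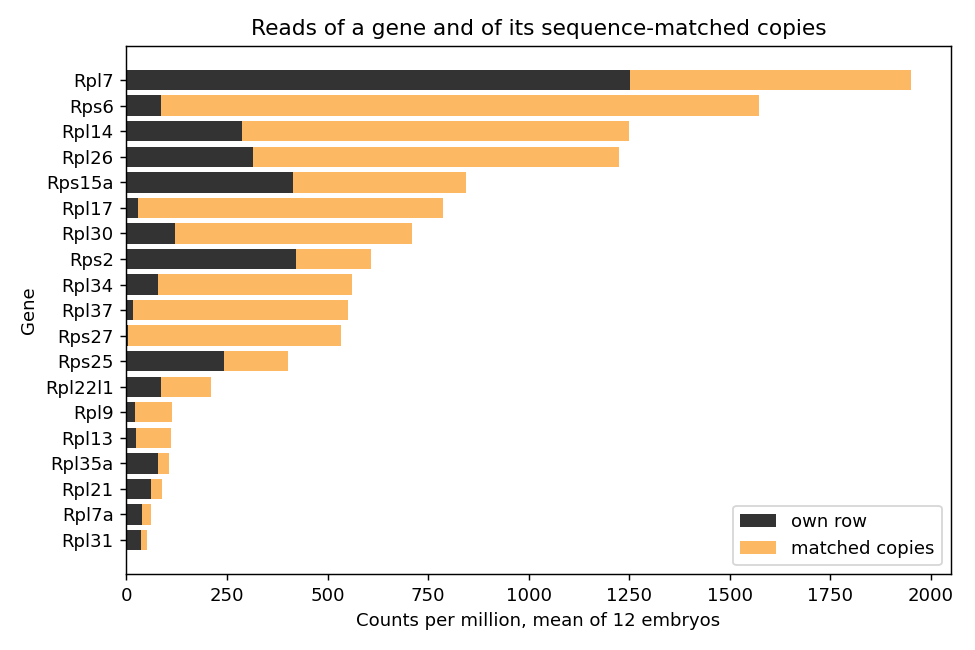
Bars give the mean CPM over 12 embryos (horizontal axis) of a gene's own row (dark) and of its sequence-matched copies (orange) for 19 members with over 20% of the combined reads in copies (1 further member past that share is not drawn). For Rps27, Rpl37 and Rps6 nearly the whole bar is orange.

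Stretches of 60 coding bases from GENCODE M21 transcripts (coding bases 219 to 278 for Rpl37 and its copy, 1 to 60 for the others) show how little separates these pairs for short reads, with capitals at bases that differ. Rps6 on chromosome 4 and Rps6-ps4 on chromosome 2 are identical over 747 coding bases, and Rps27 on chromosome 3 and Rps27rt on chromosome 9 over 252. Rpl37 on chromosome 15 and Rpl37rt on chromosome 5 share 290 of 291 bases.
Rps6: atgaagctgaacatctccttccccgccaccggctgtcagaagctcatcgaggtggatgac
Rps6-ps4: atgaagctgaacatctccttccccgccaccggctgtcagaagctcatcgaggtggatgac
Rps27: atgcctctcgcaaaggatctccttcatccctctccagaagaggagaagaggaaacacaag
Rps27rt: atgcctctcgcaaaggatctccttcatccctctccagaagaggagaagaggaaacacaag
Rpl37: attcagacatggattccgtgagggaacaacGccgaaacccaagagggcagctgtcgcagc
Rpl37rt: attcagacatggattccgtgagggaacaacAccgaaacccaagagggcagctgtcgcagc
With the copies' reads added, the log2 fold change in knockout over wild-type embryos was -0.03 ± 0.26 for Rps6, -0.11 ± 0.27 for Rps27 and 0.20 ± 0.25 for Rpl37 (SE). From their own rows alone it was 0.13 ± 0.21, 0.05 ± 0.28 and 0.59 ± 0.25. No member was called with the copies added.

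The pyrimidine tract that begins these mRNAs was visible at a part of the annotated start sites. RefSeq promoters of GRCm38.p6 were at hand for 66 members with 78 start sites, and 22 members had no entry. An unbroken run of at least 8 bases C or T, read on the gene's strand within 20 bases of the start on either side, occurred at 42.3% of these sites and at 16.05% of 32851 sites of all genes. A C at the start followed by 4 pyrimidines occurred at 17.9% and 2.51%. The 30 bases centred on the start are shown for 6 members, with the run across the start in capitals. These were picked from the 14 members with such a C and 4 pyrimidines, so they do not stand for all members.
Rplp2: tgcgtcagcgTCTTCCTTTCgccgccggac
Rps18: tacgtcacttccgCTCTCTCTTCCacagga
Rpl14: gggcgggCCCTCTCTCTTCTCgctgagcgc
Rpl35: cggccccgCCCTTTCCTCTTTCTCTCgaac
Rpl15: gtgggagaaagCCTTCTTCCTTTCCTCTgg
Rps10: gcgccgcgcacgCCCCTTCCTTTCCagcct
The windows lie at chr7:141447636-141447665 (plus strand), chr17:33955651-33955680 (minus strand), chr9:120571502-120571531 (plus strand), chr2:39005117-39005146 (minus strand), chr14:18270972-18271001 (minus strand) and chr17:27635230-27635259 (minus strand) in GRCm38.p6, in the order shown. Such a match describes letters only.

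Genes that act with the ribosome were described from lists of their own. Ribosome biogenesis factors, which process ribosomal RNA and assemble the subunits, lay above 0 in knockout over wild-type embryos for 37 of 40, against 51.3% of all genes, with a median log2 fold change of 0.37, against 0.01 for all genes. None passed the adjusted threshold, and 5 had an unadjusted p under 0.05, all higher, against 4.25% of all genes higher at that limit: Wdr12, Wdr43, Gnl3, Nop56 and Rrp12. Against heterozygous embryos 39 of 40 lay above 0, against 49.9% of all genes, with a median of 0.27. Both comparisons share the knockout embryos. Without wild-type 1 the first count was 38, with a median of 0.33, and without knockout 4 it was 37, with a median of 0.23. With the title number block it was 37, with a median of 0.19, and with the stage index as a covariate 14, with a median of -0.04. That index ranged from -3.16 to 0.20 in knockout, 0.01 to 1.07 in heterozygous and -0.58 to 2.07 in wild-type embryos.

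Other mRNAs with a pyrimidine tract, such as elongation factor genes, had a median log2 fold change of 0.06 in knockout over wild-type embryos, with 14 of 19 above 0. Mitochondrial ribosomal protein genes, which serve the separate ribosome of mitochondria, had a median of -0.11, with 19 of 78 above 0, and 0 were called. That direction rested on wild-type 1, without which 70 of 78 lay above 0, with a median of 0.11. Initiation factors had a median of 0.08, with 33 of 51 above 0. Fau and Rack1, ribosome parts with other names, had log2 fold changes of 0.19 ± 0.28 and -0.04 ± 0.25 (SE).

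Across the 12 embryos, each core gene's log2 CPM was compared with the mean of the other core genes. The median Pearson r was 0.894, with 0.986 for Rpl32 at the top and 0.372 for Rps12 at the bottom. It was 0.787 over 22 core genes with a mean under 50 CPM and 0.909 over the other 55. All points share library and scaling, so these values are descriptions. Rps12 had 23.0, 22.8, 14.2 and 30.9 CPM in knockout embryos, 11.1, 37.9, 17.8 and 19.3 CPM in heterozygous embryos and 14.6, 12.1, 20.002 and 22.7 CPM in wild-type embryos. Wild-type 1, high for most core genes, was not high for Rps12. Among 10102 other genes, the pattern most like the core mean over the 12 embryos was that of Cmss1 (r = 0.965), followed by the RNA polymerase I and III subunit gene Polr1c (0.959), Dpy30 (0.956) and the elongation factor gene Eef1b2 (0.955).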

How the data were processed

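The deposited values are estimated counts (expected counts) for each gene in 12 embryos, without normalization by the authors. They come from featureCounts 2.0.6 and the GRCm39 RefSeq annotation per the file headers, with strand ignored, mates counted singly and reads with several places split as fractions. The submitters' processing notes also list DRAGEN, whose use is not given in the sources used here. Embryos are numbered in deposition order, and numbers pair nothing. No other per-sample columns were left unused (0).

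Counts were rounded, filtered with filterByExpr (20771 of 41079 genes), TMM-scaled and tested with edgeR 4.0.16 in R 4.3.3 (robust quasi-likelihood, a mean per genotype, 12 embryos, two-sided, Benjamini-Hochberg, threshold 0.05). DESeq2 1.42.0 and limma 3.58.1 voom with sample weights were alternatives. Copies were matched with BLAST 2.17.0. The tests were tested on simulated data.

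Members and lists were chosen with earlier results of these data known. Named genes were members called, the 5 highest and 5 lowest fold changes in knockout over wild-type embryos among members of at least 10 CPM, the 4 most abundant per length in each subunit, 24 genes by role and all paralogs; some of these are not reported here. Rpl17, Rpl21, Rps12, Rps27 and genes outside the members were named after their values were seen, as were the start-site windows and copies shown.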

Additional observations from a re-analysis of the deposited data

Results flagged for a closer look

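Within a genotype, 8 of 135 groups of 4 embryos held an embryo far from the other 3 (5.93%, where chance gives about 5%). The library labelled heterozygous 2 was high for Rpl4 (5114 CPM, others 2060 to 2469 CPM), Rplp0 (4162 CPM, others 1989 to 2101 CPM), Rps26 (439 CPM, others 190.2 to 231 CPM), Rpl10 (119 CPM, others 46.5 to 56.4 CPM) and Rpl12 (69.2 CPM, others 26.2 to 30.0 CPM). The same library was low for Rpl7l1 (140.5 CPM, others 207 to 210.1 CPM). Heterozygous 3 was low for Rps27l (104 CPM, others 153 to 156 CPM), and wild-type 1 was high for Rpl23a (125.5 CPM, others 58.8 to 64.8 CPM).

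The median log2 difference of core genes in knockout over wild-type embryos was 0.55 for title number 4 and -0.41 for title number 18. Tested as an interaction over the 8 embryos of these numbers, with 2 residual degrees of freedom, the difference passed edgeR's adjusted threshold for 0 of 86 members and had an unadjusted p under 0.05 for 47. This test was chosen after seeing the values. Number 18 holds wild-type 1, whose core median relative to each gene's mean was 0.53, against -0.08 in wild-type 2 and -0.21 in knockout 3.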

How the results depend on the processing

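No alternative called a member in any of the 3 comparisons. The median log2 fold change moved by less than the SD between single embryos of a genotype (0.354) under each alternative. That is a wide limit for a difference between group means, so staying below it does not show stability. In knockout over wild-type embryos the median, 0.07 in the main fit, changed sign to -0.05 with the title number block and -0.12 with the stage index. It kept its sign at 0.27 by limma voom and 0.30 without heterozygous 2 and wild-type 1. Without heterozygous 2 and knockout 3 it was 0.16, against 0.27 for knockout over heterozygous embryos (85 of 86 members above 0) and -0.13 for heterozygous over wild-type embryos, and edgeR called 19, 33 and 0 of all genes. Leaving out single embryos gave -0.02 to 0.31, against -0.13 to 0.20 for knockout against heterozygous and -0.13 to 0.33 for heterozygous against wild-type embryos. With the stage index, Rpl10a was at -0.088 and Rpl37 at -0.051. The cause was not tested. Adding rows named as pseudogenes gave shares of reads of 3.68% in knockout, 3.83% in heterozygous and 3.70% in wild-type embryos, and adding sequence-matched copies gave 4.18%, 4.34% and 4.17%, since more rows are summed. Of 1007 alternative values for named genes, 925 stayed within 1 standard error in knockout over wild-type embryos and 123 had the other direction. The corresponding counts were 927 and 165 for knockout against heterozygous and 952 and 115 for heterozygous against wild-type embryos. These counts pool many settings that moved little, such as leaving out an embryo of the genotype not compared. In knockout over wild-type embryos, 39 of 86 members moved by over 1 standard error without wild-type 1. With the stage index 31 did, and 47 had the other direction. The use of copies, the fit without heterozygous 2 and wild-type 1 and the test between title numbers were chosen after seeing the data. Shares of reads do not depend on scaling, filter or test, so those alternatives gave no other value. The labels give no replicate numbers, so no replicate block was fitted, and the title number block is the nearest fit to a pairing. That block leaves knockout 4 and heterozygous 3, each the only embryo of its number, without a part in the fold changes.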
